A study of Homo sapiens with 14 samples.

Results

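The binding of SKI and RUNX1 at 9 inflammatory genes was read from peak lists of HL60 cells. They comprised the CXC chemokines CXCL8, CXCL2 and CXCL10, the CC chemokines CCL2, CCL3 and CCL4, and the cytokines TNF, IL1B and IL6. They are 9 of the 20056 protein-coding genes in the RefSeq gene table. CXCL8 is listed under its older symbol IL8. A peak was given to a gene when the deposited nearest gene name was that gene, or when the peak summit lay within 10 kb of a transcription start site (TSS) of that gene. By this rule the 9 genes held 47 of the 88872 peaks in the 4 lists. CXCL8, CCL2, CCL3, CCL4 and TNF (5 of the 9 genes, 55.6%) carried a SKI site within 10 kb that recurred in all 3 SKI lists. The share of all protein-coding genes was 24.8%. With lists cut to equal length, 1 of the 9 genes, CXCL8, kept such a site, against 8.65% of all genes. Only CXCL8 and CCL2 among the 9 also carried RUNX1 within 10 kb (22.2%, against 10.0% of all genes). In both genes it lay on SKI sites upstream of the gene, not over the start.

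HL60 is an established human line of acute myeloid leukaemia and grows as immature myeloid cells. The series holds 14 samples, of which 4 peak lists from chromatin immunoprecipitation sequencing were used. SKI was mapped with an anti-SKI antibody in unmodified cells, replicates 1 and 2, and in CRISPR/Cas9 control cells of 1 line labelled CTR-1. RUNX1 was mapped with an anti-RUNX1 antibody in unmodified cells, in 1 sample. All cells were grown in RPMI with FCS and fixed with formaldehyde, and the labels name no stimulus. The labels do not say whether CTR-1 is a single clone. The remaining 10 samples, which include SKI-deleted cells, IgG, CEBPB and histone marks, were not used here, so how far a SKI peak depends on SKI was not tested.

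The SKI lists held 54841, 14431 and 14019 peaks (unmodified replicate 1, unmodified replicate 2 and control cells), and the RUNX1 list held 5581. The first SKI list is the longest, and a gene seen in that list alone has no second list behind it. Library depth is not given in the sources used here. The tags are the reads the authors' peak caller counted in a peak, and the fold enrichment is its height over the local background. Both are the authors' values for single peaks, and they rank peaks within a list only. Rank 1 is the highest fold enrichment of a list. Positions are on hg19.

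Chemokines are small secreted proteins that draw leukocytes to a tissue. CXCL8 attracts neutrophils through CXCR1 and CXCR2 and CXCL2 does so through CXCR2. CXCL10 attracts T cells through CXCR3, CCL2 attracts monocytes through CCR2, and CCL3 and CCL4 attract monocytes and T cells. TNF, IL1B and IL6 are cytokines of the acute inflammatory response. In myeloid cells many of these genes are known to be induced quickly, with NF-kappaB, AP-1 and C/EBP factors acting at their promoters and enhancers. SKI is a corepressor that reaches DNA mainly through partners, SMAD proteins among them. RUNX1 binds DNA directly, with its partner CBFB, and is required for blood cell formation.

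The promoter sequences are shown because 5 of the genes in the sequence table, CXCL8, CXCL2, CCL3, TNF and IL1B, had a SKI peak over their start in the first unmodified SKI list. RefSeq promoters matched 7 of the 9 genes by symbol. CCL2 and CCL4 did not match. Each line gives the 250 bases before the annotated start, 5′ to 3′ on the strand of the gene, on GRCh38.p14, another build than that of the peaks. Capitals mark matches to the motifs searched. The stretches lie at chr4:73740319-73740568 on the plus strand (CXCL8), chr4:74099196-74099445 on the minus strand (CXCL2), chr17:36090144-36090393 on the minus strand (CCL3), chr6:31575315-31575564 on the plus strand (TNF) and chr2:112836780-112837029 on the minus strand (IL1B).
CXCL8: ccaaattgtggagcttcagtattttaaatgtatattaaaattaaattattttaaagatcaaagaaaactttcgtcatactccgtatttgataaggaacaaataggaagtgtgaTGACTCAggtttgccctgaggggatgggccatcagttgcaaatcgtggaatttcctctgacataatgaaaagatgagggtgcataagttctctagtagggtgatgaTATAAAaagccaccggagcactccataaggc
CXCL2: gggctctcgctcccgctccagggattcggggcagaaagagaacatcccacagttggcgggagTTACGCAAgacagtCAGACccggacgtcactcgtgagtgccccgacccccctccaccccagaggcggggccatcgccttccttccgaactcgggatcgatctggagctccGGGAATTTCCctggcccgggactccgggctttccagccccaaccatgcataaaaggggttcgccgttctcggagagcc
CCL3: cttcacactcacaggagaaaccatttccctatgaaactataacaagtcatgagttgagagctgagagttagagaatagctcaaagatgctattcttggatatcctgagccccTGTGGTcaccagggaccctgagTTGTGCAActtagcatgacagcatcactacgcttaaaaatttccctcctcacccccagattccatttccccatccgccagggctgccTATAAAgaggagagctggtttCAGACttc
TNF: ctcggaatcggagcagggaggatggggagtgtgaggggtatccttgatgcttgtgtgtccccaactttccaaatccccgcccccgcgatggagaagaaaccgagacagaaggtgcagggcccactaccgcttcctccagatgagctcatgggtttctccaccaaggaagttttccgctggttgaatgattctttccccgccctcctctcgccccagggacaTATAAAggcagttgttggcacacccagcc
IL1B: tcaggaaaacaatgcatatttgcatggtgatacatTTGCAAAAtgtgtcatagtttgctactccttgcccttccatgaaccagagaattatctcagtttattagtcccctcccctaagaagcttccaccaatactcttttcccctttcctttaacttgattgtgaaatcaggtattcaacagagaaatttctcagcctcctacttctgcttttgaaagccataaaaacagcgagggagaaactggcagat

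The motifs were searched on both strands over 300 bases, from 250 before to 50 after the start. They were RUNX (TGTGGT or TGCGGT), SMAD (CAGAC), AP-1 (TGANTCA), C/EBP (TTGCNNAA), the TATA box (TATAAA) and NF-kappaB (GGG, any 2 bases, TTTCC). Among the 7 promoters, only that of CCL3 held a RUNX match, at -138, and 19.6% of the 35116 promoters of the table held one. The NF-kappaB letters were found in CXCL2, at -78, and in IL6, at -73, against 1.91% of all promoters. CXCL8 held the AP-1 letters at -137, and 7.71% of all promoters did. A TATA box stood at -31 in CXCL8 and at -29 in TNF and in CCL3, against 11.5% of all promoters. The C/EBP letters were in CCL3, CXCL2, IL1B and IL6 (10.5% of all promoters). The SMAD letters were in CCL3, CXCL10, CXCL2, IL6 and TNF (45.3% of all promoters). A match describes the sequence and says nothing of binding. A missing match does not show that a site is absent, because only these exact letters were searched. The CXCL8 promoter, for example, holds tggaatttcc, which departs from the NF-kappaB letters at the first base only.

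SKI lay within 10 kb of a TSS of 8 of the 9 genes (88.9%), and of 63.4% of all protein-coding genes. Only a gene named by a peak has a TSS here, so this count is largely fixed by the rule. A TSS was rebuilt for 13368 protein-coding genes, and 12707 of them had SKI within 10 kb. It was rebuilt for 8 of the 9 genes, and all of these had SKI within 10 kb. A shared SKI site, one with overlapping peaks of all 3 SKI lists, lay within 10 kb of 5 of the 9 genes (55.6%), CXCL8, TNF, CCL3, CCL4 and CCL2, against 24.8% of all protein-coding genes. Among genes whose TSS could be rebuilt from the lists, which needs a nearby peak, the shares were 5 of 8 and 37.2%. CXCL2, IL1B and IL6 had SKI peaks in the first unmodified list alone, and CXCL10 had none in any list. RUNX1 lay within 10 kb of 2 of the 9 genes (22.2%), CXCL8 and CCL2, against 10.0% of all genes. The same 2 genes held RUNX1 on a shared SKI site, against 6.62% of all genes. CCL3 and CCL4 are neighbours with peaks of unmodified replicate 1 in common, so they do not count as independent genes. Their shared SKI sites are separate ones, 4.3 kb downstream of the CCL3 start and over the CCL4 start. With all lists cut to the 5581 peaks of highest −log10 p, 1 of the 9 genes, CXCL8, had a shared SKI site within 10 kb and RUNX1 on it, against 8.65% and 3.95% of all genes. A site 12.4 kb upstream of CCL2, beyond that distance, also stayed shared and on RUNX1 there. CCL3 lost its site when genes were taken by name alone or when peaks needed a −log10 p of at least 10. Within 1 kb of a TSS, 2 genes, TNF and CCL4, had a shared site (17.0% of all genes), and none had RUNX1 (3.88%) or RUNX1 on a shared site (2.58%). Within 50 kb, 6 genes had RUNX1 and 4 had it on a shared site, against 22.3% and 15.5% of all genes.

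**Figure D1:**
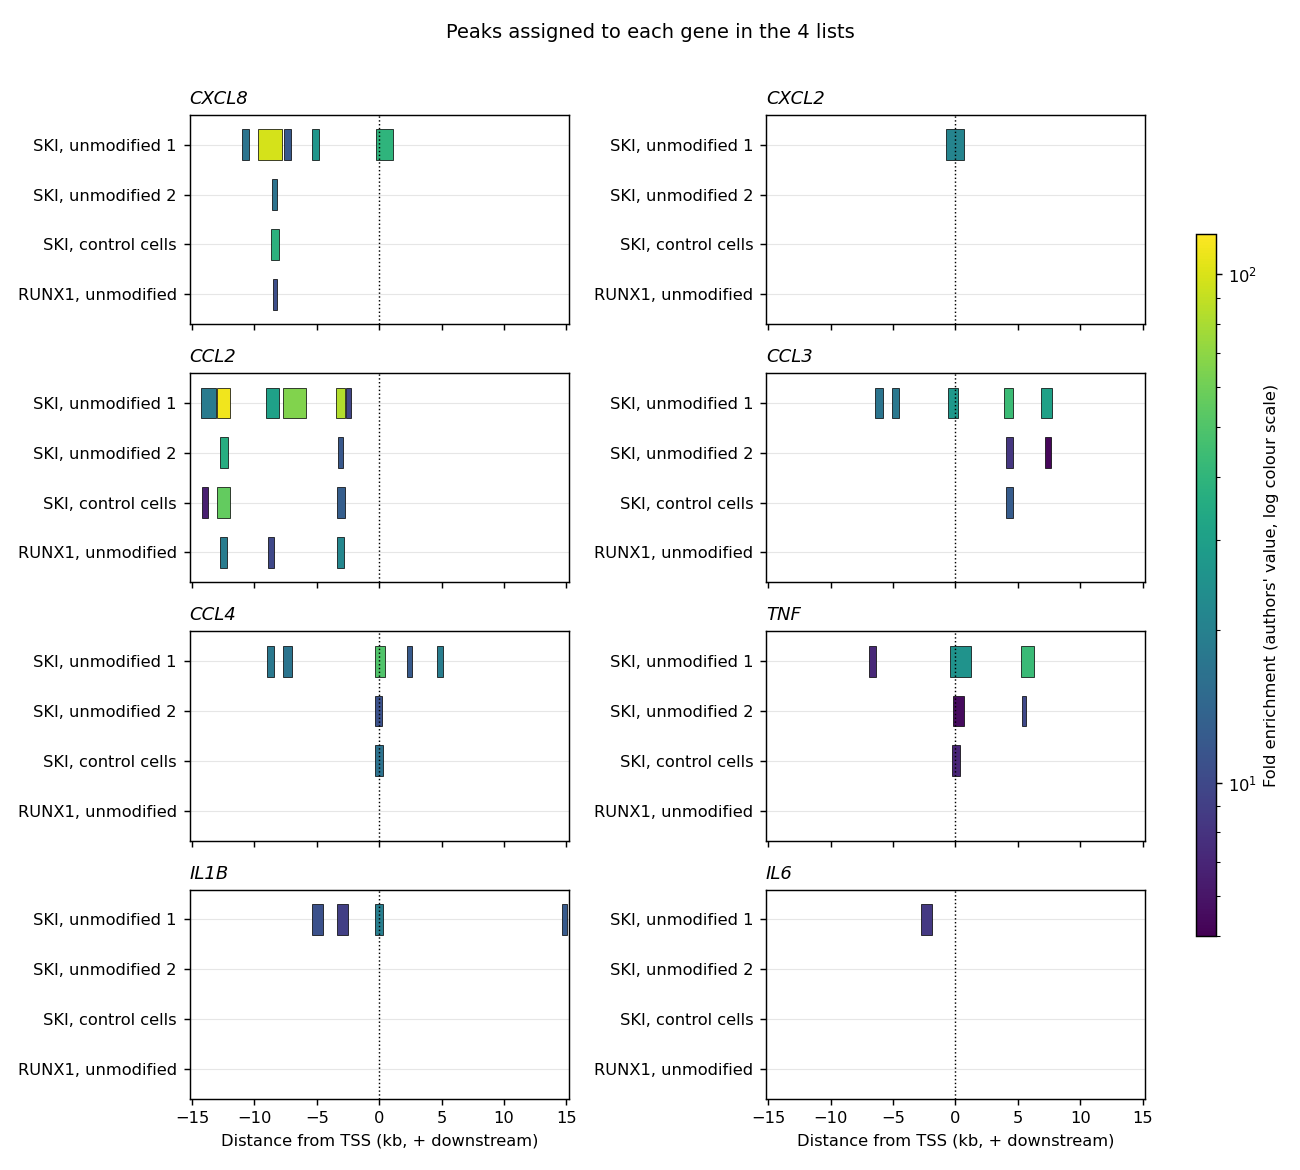
Peaks given to 8 of the 9 genes, drawn to scale by distance from the TSS in kb, with 1 row for each list and fold enrichment as colour on a log scale. CXCL8 and CCL2 have peaks in all 4 rows, CCL4, TNF and CCL3 in the 3 SKI rows, and CXCL2, IL1B and IL6 in the top row only. CXCL10 has no peak and no panel.

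CXCL8, the main human neutrophil chemokine, carried its shared SKI site 8.4 kb upstream of the TSS and not at the promoter. The site lies between genes. In unmodified replicate 1 the peak covered chr4:74596528-74598450, with 882 tags, a fold enrichment of 98.2 and rank 1209. Unmodified replicate 2 placed it at chr4:74597653-74598042, with 68 tags, a fold enrichment of 16.8 and rank 3187. Control cells placed it at chr4:74597539-74598199, with 140 tags, a fold enrichment of 38.1 and rank 844. It was the best ranked peak of CXCL8 in each SKI list. The RUNX1 peak at chr4:74597671-74598043 lay inside the SKI peaks of unmodified replicate 1 and of control cells. It had 51 tags, a fold enrichment of 10.6 and rank 4560 of 5581, so the RUNX1 peak stood low in its own list. Its summit was 18, 39 and 11 bp from the SKI summits of unmodified replicate 1, unmodified replicate 2 and control cells.

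Over the CXCL8 start itself, SKI was listed in unmodified replicate 1 alone, at chr4:74605975-74607346, with 206 tags, a fold enrichment of 39.4 and rank 10792. This peak covers the promoter shown above, by its place at the TSS. Further peaks of that list lay 10.7, 7.3 and 5.1 kb upstream, with fold enrichments of 16.9, 12.0 and 26.6. None of these 4 peaks overlapped RUNX1, and none had a counterpart in the other SKI lists.

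CXCL2, a neutrophil chemokine whose promoter held the NF-kappaB letters, had 1 SKI peak over its start, in unmodified replicate 1. It covered chr4:74964357-74965790, with 273 tags, a fold enrichment of 20.9 and rank 24375. CXCL10, the interferon-induced T cell chemokine, was the only one of the 9 genes with no peak. RefSeq places CXCL10 between CXCL9 and CXCL11, and no list held a peak in the 30.9 kb between the peaks nearest to these neighbours, which run from base 76925349 to base 76956225 of chromosome 4. The TSS of CXCL10 cannot be rebuilt from these lists, so its distance to the flanking peaks is not given. On the flanks, CXCL9, a related interferon-induced chemokine, had SKI peaks of fold enrichment 78.5 and 62.9 in unmodified replicate 1 and of 16.3 and 18.7 in control cells, with RUNX1 at 8.99 and 11.3. CXCL11 had a SKI peak of fold enrichment 44.8 in unmodified replicate 1 and a RUNX1 peak of 16.0. Unmodified replicate 2 listed no peak at CXCL9 or CXCL11 within 10 kb of a TSS.

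CCL2, the monocyte chemokine, had the most RUNX1 of the 9 genes, with 3 RUNX1 peaks, all upstream of the gene. Its strongest site lay 12.4 kb upstream and belongs to CCL2 by name, since it is outside the 10 kb limit. There SKI had 667 tags, a fold enrichment of 112 and rank 703 in unmodified replicate 1 (chr17:32569325-32570339). SKI had 143 tags, a fold enrichment of 36.0 and rank 609 in unmodified replicate 2. In control cells it had 211 tags, a fold enrichment of 55.7 and rank 343. These were the best ranked peaks of any of the 9 genes in each SKI list. The RUNX1 peak on this site (chr17:32569555-32570112) had 60 tags, a fold enrichment of 18.7 and rank 2737, with its summit 103, 96 and 82 bp from the SKI summits of unmodified replicate 1, unmodified replicate 2 and control cells.

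A second shared site of CCL2 lay about 3.1 kb upstream, inside the 10 kb limit. SKI had 465 tags, a fold enrichment of 83.0 and rank 2207 there in unmodified replicate 1 (chr17:32578841-32579610). Unmodified replicate 2 gave 67 tags, a fold enrichment of 11.8 and rank 5846, and control cells gave 68 tags, 12.8 and rank 6174. The site therefore ranked high in the first list and in the middle of the other lists. RUNX1 at this site (chr17:32578953-32579474) had 40 tags and the highest RUNX1 fold enrichment of the 9 genes, 21.8, at rank 2225. The third RUNX1 peak, 8.7 kb upstream, had 34 tags, a fold enrichment of 9.92 and rank 4700. It overlapped a SKI peak of unmodified replicate 1 alone, with 222 tags and a fold enrichment of 30.6, and the summits were 16 bp apart. Unmodified replicate 1 further listed SKI without RUNX1 at 6.4 kb (fold enrichment 65.5) and 2.5 kb (9.55) upstream. A site 14.0 kb upstream was listed in unmodified replicate 1 (18.6) and in control cells (6.49). No list held a peak over the CCL2 start.

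CCL4 and CCL3 encode the macrophage inflammatory proteins and lie next to each other on chromosome 17. CCL4 carried its shared SKI site over the promoter. The peak had 253 tags, a fold enrichment of 49.9 and rank 7396 in unmodified replicate 1 (chr17:34430614-34431412). Unmodified replicate 2 listed it with 56 tags, a fold enrichment of 11.0 and rank 6484. Control cells listed it with 66 tags, a fold enrichment of 16.6 and rank 4160. CCL4 was, with TNF, one of 2 of the 9 genes whose promoter itself was in all 3 SKI lists. Unmodified replicate 1 added peaks 2.1 and 4.6 kb downstream of the start (12.2 and 19.1).

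At CCL3 the shared site lay 4.3 kb downstream of the start, in an intron of the gene listed as AC069363.1, and so was not assigned to CCL3 by name. SKI had 231 tags and a fold enrichment of 43.4 there in unmodified replicate 1 (chr17:34412886-34413578, rank 9318). It had 62 tags and a fold enrichment of 8.25 in unmodified replicate 2 (rank 9489), and 38 tags and 12.4 in control cells (rank 6438). Over the CCL3 start, whose promoter held the RUNX letters, SKI was listed in unmodified replicate 1 alone, with 126 tags, a fold enrichment of 27.1 and rank 17778. A peak 7.2 kb downstream was in unmodified replicate 1 (30.8) and, with its summit at 7.3 kb, in unmodified replicate 2 (5.26). Upstream, unmodified replicate 1 held peaks of 17.8 and 16.9 at 4.8 and 6.1 kb, which also lie within 10 kb of CCL4. No RUNX1 peak was given to CCL3 or CCL4.

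CCL3 and CCL4 have near-identical copies beside them, CCL3L3 and CCL3L1, and CCL4L1 and CCL4L2, and how reads that fit several copies were placed is not given in the sources used here. The values of CCL3 and CCL4 are therefore uncertain. The copies were set beside them after their values were seen. At the site about 4 kb downstream of the start, the copies had the higher fold enrichment in every SKI list. In unmodified replicate 1 it was 178 at CCL3L3 (rank 24) and 192 at CCL3L1 (rank 3), against 43.4 at CCL3. In unmodified replicate 2 it was 34.5 and 44.4, against 8.25, and in control cells 52.0 and 43.5, against 12.4. Tags at CCL3L3, CCL3L1 and CCL3 were 471, 443 and 231 in unmodified replicate 1 and 90, 76 and 38 in control cells. In unmodified replicate 2 they were 69, 71 and 62, a far smaller gap than that in fold enrichment. Over the start, unmodified replicate 1 gave 99.3 at CCL3L3 and 107 at CCL3L1 against 27.1 at CCL3. Control cells also listed a peak at the CCL3L1 start, with 44 tags and a fold enrichment of 11.7. For CCL4, unmodified replicate 1 gave 77.4 at CCL4L1 and 81.1 at CCL4L2 against 49.9 at CCL4, although tags were 180 and 174 against 253. The promoter peaks of CCL4L1 and CCL4L2 were in the first list alone, whereas that of CCL4 was in all 3. None of these peaks at the copies overlapped RUNX1.

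**Figure D2:**
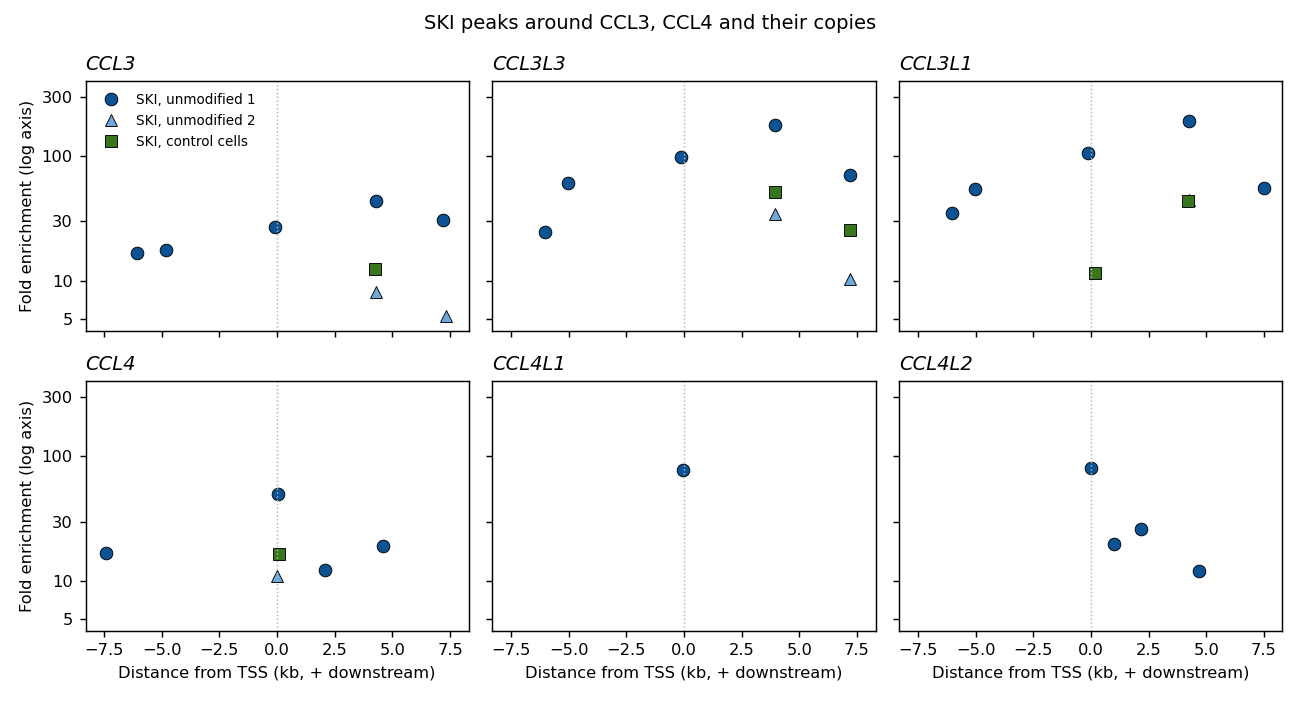
Fold enrichment (log axis) of SKI peaks against distance from the TSS in kb, for peaks within 8 kb of CCL3, CCL4 and their copies, with 1 symbol for each SKI list. The same spacing of peaks recurs at CCL3, CCL3L3 and CCL3L1, and the highest point of each copy of CCL3, 178 and 192, lies about 4 kb downstream; the triangle at CCL3L1 is hidden behind the square, at 44.4 and 43.5.

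TNF, the main early cytokine of macrophages, held SKI over its promoter in all 3 lists, at a low rank of fold enrichment in the shorter 2. Unmodified replicate 1 listed chr6:31542859-31544536 with 398 tags, a fold enrichment of 25.7 and rank 19056. Unmodified replicate 2 gave 72 tags, a fold enrichment of 5.50 and rank 13134, and control cells gave 55 tags, 6.98 and rank 11820. In the shorter lists the TNF promoter peak thus stood low by fold enrichment, but by tags it held rank 4722 of 14431 and rank 7830 of 14019. A peak 5.5 kb downstream, nearest to the neighbouring lymphotoxin gene LTB, had a higher fold enrichment and fewer tags. It was in unmodified replicate 1 (235 tags, fold enrichment 43.1) and unmodified replicate 2 (44 tags, 9.98) and not in control cells. Unmodified replicate 1 alone held a weak peak 6.7 kb upstream (40 tags, 7.12). RUNX1 was not listed within 10 kb of TNF. Just outside that limit, 11145 to 11223 bp downstream and nearest to LST1, SKI had fold enrichments of 93.1, 20.4 and 42.3 (unmodified replicate 1, unmodified replicate 2 and control cells) and RUNX1 had 36.5.

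IL1B, which encodes interleukin 1 beta, had SKI in unmodified replicate 1 alone. The peak over its start covered chr2:113594117-113594694, with 96 tags, a fold enrichment of 19.2 and rank 26785. Peaks of lower fold enrichment lay 3.2 and 5.0 kb upstream, at 8.99 and 11.1. The peak at 5.0 kb had more tags than that over the start, 126, and was nearest to AC079753.1. A further peak, given to IL1B by name, lay 11.7 kb from the nearest rebuilt start, with 47 tags and a fold enrichment of 12.1. IL6 had the weakest signal of the genes with a peak. Its 1 SKI peak lay 2.3 kb upstream (chr7:22762668-22763610) in unmodified replicate 1, with 62 tags, a fold enrichment of 8.51 and rank 48941 of 54841. No RUNX1 peak was given to IL1B, IL6 or CXCL2.

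**Figure D3:**
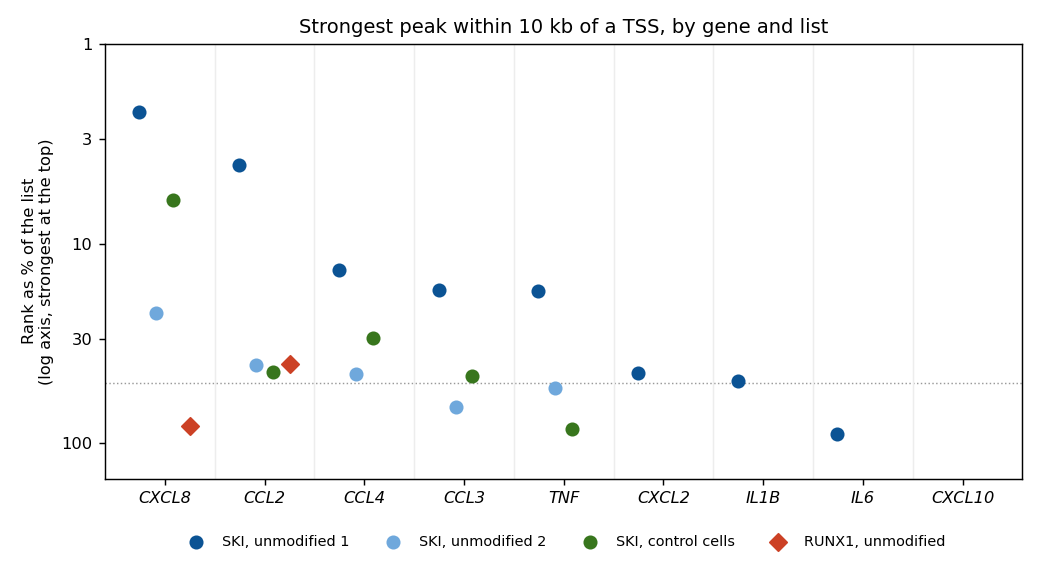
Rank by fold enrichment of the best SKI and RUNX1 peak within 10 kb of a TSS of each gene, as a percentage of the length of its list, on a log axis with strong peaks at the top; each symbol is 1 peak of 1 list, set sideways by list, and the dotted line marks the middle of a list. CXCL8 stands highest in all 3 SKI lists, at 2.20%, 22.1% and 6.02%, and CXCL10 has no symbol.

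By the fold enrichment of the best SKI peak within 10 kb, CXCL8 came first of the 9 genes in every SKI list, in the top 2.20%, 22.1% and 6.02% of unmodified replicate 1, unmodified replicate 2 and control cells. By tags this did not hold in unmodified replicate 2, where the TNF promoter (72 tags) stood above CXCL8 (68 tags). By −log10 p, CXCL8 and CCL2 had the same listed value, 310.0, and the same rank, 314, in unmodified replicate 1. The order below CXCL8 was not the same in the lists. In unmodified replicate 1 CCL2 (4.02%), CCL4 (13.5%), CCL3 (17%) and TNF (17.2%) followed, then CXCL2 (44.4%), IL1B (48.8%) and IL6 (89.2%). In unmodified replicate 2 the order was CCL2 (40.5%), CCL4 (44.9%), TNF (52.5%) and CCL3 (65.8%). In control cells it was CCL4 (29.7%), CCL2 (44.0%), CCL3 (45.9%) and TNF (84.3%). For TNF the peak ranked was the one 5.5 kb downstream in both unmodified lists. Control cells list no such peak, so their value is that of the TNF promoter. The TNF promoter peak itself stood at 34.7%, 91% and 84.3% in unmodified replicate 1, unmodified replicate 2 and control cells, below CCL3 each time. CCL2 and CCL4 thus changed places between lists, whereas TNF and CCL3 did so only through the choice of peak for TNF. As each list is 1 sample, no spread within a condition beyond the 2 unmodified SKI lists can be given.

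The SKI peaks of the 9 genes had medians close to those of their lists, and the strong ones were at CXCL8 and CCL2. Their median fold enrichment was 20.0, 10.5 and 12.8 in unmodified replicate 1, unmodified replicate 2 and control cells, against list medians of 18.8, 10.4 and 11.6. Their median tags were 126, 64.5 and 66, against 97, 56 and 61. The strongest 10% of each SKI list held 4 of 28, 1 of 8 and 2 of 7 of these peaks, and all of these belonged to CCL2 or CXCL8. The 4 RUNX1 peaks had a median fold enrichment of 14.6 against 18.3 for the list, and none was in its strongest 10%.

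RUNX1 overlapped a minority of the SKI peaks of the 9 genes. It lay on 4 of 28 peaks in unmodified replicate 1 (14.3%, exact Clopper-Pearson 95% interval 4.03 to 32.7%), against 9.21% of the whole list. It lay on 3 of 8 in unmodified replicate 2 (37.5%, 8.52 to 75.5%), against 23.9%. In control cells it lay on 3 of 7 (42.9%, 9.90 to 81.6%), against 27.8%. The list-wide share lay inside the interval each time, but the intervals cover counting error only. They treat peaks as independent although peaks of 1 gene share a locus, so this comparison is not a test. The peaks that overlapped RUNX1 were those 8.4 kb upstream of CXCL8 and 12.4, 8.7 and 3.1 kb upstream of CCL2.

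No promoter peak of the 9 genes overlapped RUNX1. Within 1 kb of a TSS, 0 of 6 SKI peaks of unmodified replicate 1 did, with an exact upper limit of 45.9%, against 6.10% of such peaks in the list. In unmodified replicate 2 it was 0 of 2 against 11.9%, and in control cells 0 of 2 against 14.0%, each with an exact upper limit of 84.2%. These peaks lie over the starts of CXCL8, CXCL2, CCL3, CCL4, TNF and IL1B. Farther from any TSS, RUNX1 lay on 4 of 22, 3 of 6 and 3 of 5 SKI peaks, against 10.5%, 35.2% and 38.3% of such peaks in the lists.

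**Figure D4:**
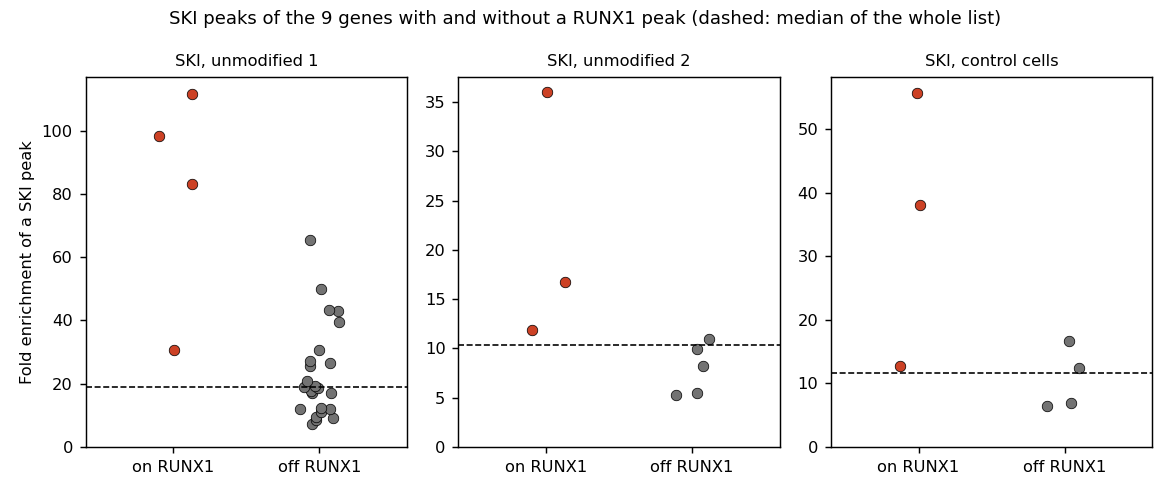
Fold enrichment of each SKI peak of the 9 genes, by whether it overlaps a RUNX1 peak, in the 3 SKI lists; each point is 1 peak, points are spread sideways only to be seen, and the dashed line is the median of the whole list. In unmodified replicate 2 the 3 peaks on RUNX1 lie above all 5 others, and in the other lists the groups overlap.

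The SKI peaks on RUNX1, all at CXCL8 and CCL2, had the higher median fold enrichment in each list. Their median fold enrichment was 90.6 against 18.8 for the other SKI peaks in unmodified replicate 1, 16.8 against 8.25 in unmodified replicate 2 and 38.1 against 9.69 in control cells. In unmodified replicate 2 the lowest peak on RUNX1, 11.8 at CCL2, lay above the highest without it, 11.0 at CCL4. In unmodified replicate 1 the lowest on RUNX1 was 30.6 and the highest without it 65.5, both at CCL2. In control cells the lowest on RUNX1 was 12.8 at CCL2 and the highest without it 16.6 at CCL4. Peaks of 1 gene share a locus, so no test was made. The same comparison was not made over the whole lists, so it does not set these genes apart. All peaks on RUNX1 lay farther than 1 kb from any TSS, whereas the others include promoter peaks.

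In all, 59 other genes of the same pathways, in 5 lists, were read by the same rule, against the background shares of 24.8% (shared SKI site), 10.0% (RUNX1) and 6.62% (both). Among 11 other CXC chemokines, 1 had a shared SKI site, 3 had RUNX1 and none had both. The 1 gene was CXCL3, a neutrophil chemokine like CXCL2, with SKI over its start (fold enrichment 38.8, 12.2 and 15.9 in unmodified replicate 1, unmodified replicate 2 and control cells). Among 12 other CC chemokines, 2 had a shared site, 2 had RUNX1 and 1 had both. CCL20, which attracts cells through CCR6, had its best site 9.7 kb upstream (99.95, 28.8 and 16.1), without RUNX1. The RUNX1 peak of CCL20 lay on its other shared site. CCL22, a CCR4 ligand, had its best site 9.4 kb upstream (61.3, 11.3 and 12.3), also without RUNX1.

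Among 15 other cytokines, 8 had a shared SKI site, 7 had RUNX1 and 6 had both. CSF2, the gene of the growth factor GM-CSF, had the site of best rank among these cytokines, 4.1 kb upstream, with SKI fold enrichments of 160, 61.7 and 82.4 (ranks 78, 163 and 130) and RUNX1 at 24.3. IL1A, which encodes interleukin 1 alpha, had a shared site 3.3 kb upstream (112, 22.7 and 31.0) with RUNX1 at 9.33. IL10, an anti-inflammatory cytokine, had one over its start (95.4, 19.2 and 18.9) with RUNX1 at 14.9. The best site of LTB was the one nearest to LST1 that lies just beyond 10 kb from TNF, and the only shared site of LTA was the TNF promoter, so these genes do not count separately from the TNF locus.

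Among 13 receptors of the 9 proteins, 8 had a shared SKI site, 6 had RUNX1 and 4 had both. IL1RAP, the accessory chain of the interleukin 1 receptor, had a site 3.2 kb downstream of its start whose peak had rank 1 of unmodified replicate 1 (fold enrichments 204, 37.5 and 35.9), without RUNX1. CXCR3, the CXCL10 receptor, had one over its start (93.8, 15.9 and 25.5) with RUNX1 at 41.8. IL6R, the interleukin 6 receptor, had one 1.5 kb upstream (69.3, 18.1 and 45.4) with RUNX1 at 25.6. TNFRSF1B, a TNF receptor, had one 5.0 kb downstream (54.3, 9.77 and 14.0), without RUNX1.

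Among 8 genes that limit cytokine output, by decay of the transcripts or by feedback on NF-kappaB, 6 had a shared SKI site, 3 had RUNX1 and 2 had both. NFKBIA, the NF-kappaB inhibitor, had SKI over its start (81.2, 23.9 and 55.5) with RUNX1 at 13.3. ZC3H12A, an RNase that degrades the IL6 transcript, had SKI over its start (76.3, 16.7 and 28.4) with RUNX1 at 34.8. ZFP36, which binds the TNF transcript and speeds its decay, had SKI over its start without RUNX1 (72.5, 20.8 and 26.4). TNFAIP3, which ends NF-kappaB signalling, had SKI over its start (36.5, 15.5 and 8.02), and its RUNX1 peak lay elsewhere.

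**Figure D5:**
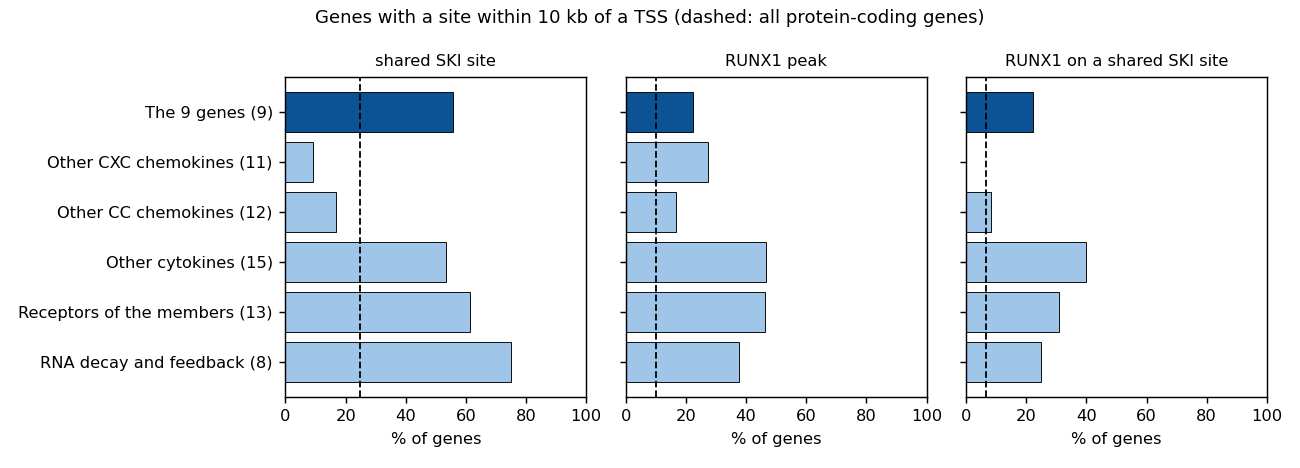
Share of genes, in percent, with a shared SKI site, a RUNX1 peak, and RUNX1 on a shared SKI site within 10 kb of a TSS, for the 9 genes (dark bars) and 5 lists of other genes of the same pathways (light bars, number of genes in brackets); dashed lines are the shares of all protein-coding genes, 24.8%, 10.0% and 6.62%. The other chemokines lie below the first line, at 9.09% and 16.7%, and the 9 genes, the other cytokines, the receptors and the feedback genes lie above it. All bars lie above the second line, those of the other CXC and CC chemokines at 27.3% and 16.7%. Only the other CXC chemokines, at 0%, lie below the third.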

How the data were processed

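The 4 ChIP-seq peak lists used take their groups and replicate numbers from the sample titles. The submitters' processing notes name hg19, GRCh37, MACS 1.4, Bowtie2, deepTools and bcl2fastq without their roles, and the control library set against each ChIP is not given in the sources used here. Per the file headers, each deposited peak has a −log10 p-value, a fold enrichment (a ratio) and a count of tags. The deposited nearest gene, position class and distance from summit to TSS were read as listed. A TSS was rebuilt for each transcript from the distances of its peaks (their median; 39081 TSSs). Distances from these differed from the deposited ones by 12 bp at the median and 371 bp at percentile 99, and a gene that no peak names has no TSS here. SKI peaks with an overlap of 1 bp or more made up a site, and 8980 sites held all 3 SKI lists. Gene symbols came from a RefSeq table of GRCh38.p14, used for names and promoters only. The genes and gene lists were chosen with earlier results of these data known, and so carry no test. Up to 4 genes of each other list are named, those with a shared site and the best worst rank. The counting was tested on simulated lists. Alternatives covered the threshold, list length, distance, naming rule, overlap rule and each SKI list left out. Calculations used pandas 2.3.3, numpy 2.4.6 and scipy 1.17.1 in Python 3.11.15, with figures from matplotlib 3.10.9.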

Additional observations from a re-analysis of the deposited data

How the results depend on the processing

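Of 49 alternative counts, 39 stayed within 1.5 times the reported count and 10 moved. With lists cut to equal length (the 5581 peaks of highest −log10 p), 1 gene, CXCL8, kept a shared SKI site within 10 kb and 1 gene RUNX1 on it (CXCL8 and CCL2 when genes were also taken by name), and the SKI lists held 3, 3 and 3 peaks of the 9 genes. Within 1 kb of a TSS, 2 genes, TNF and CCL4, had a shared site, and 0 had RUNX1 or RUNX1 on a shared site. Within 50 kb, 6 genes had RUNX1 and 4 had it on a shared site, against 22.3% and 15.5% of all genes. Leaving out each SKI list gave 5 to 5 genes with a shared site and 2 to 2 with RUNX1 on it. CCL3 lost its shared site under names alone and at −log10 p of at least 10 (4 genes each). Requiring overlapping peaks to have summits within 250 bp also left 4 genes. There TNF lost its site, as its promoter summit lay 9, 323 and 24 bp downstream of the TSS (unmodified replicate 1, unmodified replicate 2 and control cells). Measuring from the nearest peak edge, chosen after seeing the data, changed no count. Ranking the best peaks by −log10 p or tags kept 25 of 40 ranks within 1.5 times. No paired analysis was possible because no result comes from a test and only replicate number 1 occurs in more than 1 group. Each RUNX1 and control-cell value rests on 1 list, and library depth, which limits what a missing peak can show, is not given in the sources used here.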
